A study of Apis mellifera with 9 samples.

Results

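The sugar, amino acid and ion transporters of the honey bee worker ovary were taken as the protein-coding genes whose deposited protein (NR) or nucleotide (NT) description names a solute carrier family or a facilitated trehalose, amino acid, monocarboxylate or organic cation transporter. This rule found 117 of the 10271 protein-coding genes among 13204 listed genes. The NR description named 111 of them, and 6 were found by the NT description alone. The study profiled ovaries of 4-day-old workers (Apis mellifera) in 3 pools of 40 ovary pairs, all the workers of a pool coming from 1 colony, with 5 colonies headed by sister queens. Every pool number carries 1 RNA-seq library for mRNA and lncRNA, 1 circRNA library digested with RNase R and 1 small RNA library. There is 1 biological group, with no treatment and no other caste, so levels are described across genes and across pools. Each pool is 1 library of each kind, and differences between pools have no replicate check and no test.

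Solute carriers are membrane proteins that move sugars, amino acids, metabolites and ions across the plasma membrane and the membranes of organelles. Trehalose is the main blood sugar of insects, and facilitated trehalose transporters (Tret1) let it pass down its gradient into or out of cells. Amino acid transporters bring in the building blocks of protein and clear the transmitter glutamate, while carriers of the mitochondrial inner membrane link metabolism in the cytosol with that in the mitochondrion. An insect ovary takes these nutrients from the surrounding haemolymph.

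The RNA-seq libraries held 26602582 to 31930244 fragments, as recovered from the deposited FPKM (fragments scaled to exon length and to library size). The germ line markers vas and LOC725920, a vitellogenin receptor gene, were detected in every pool, with a summed level of 23.2, 35.9 and 36.8 FPKM in pools 1, 2 and 3. Marker genes of other tissues were also present and some were unevenly spread. All 4 gut markers were highest in pool 1, with sums of 156, 42.6 and 41.1 FPKM. LOC410894 measured 51.8, 0.0401 and 0.418 FPKM and LOC413645 measured 22.1, 0.0412 and 0.515 FPKM. Most of the sums in pools 2 and 3 came from LOC412808, at 81.3, 42.5 and 40.2 FPKM. LOC409626 measured 0.679, 0.0522 and 0 FPKM. The 3 muscle markers summed to 932, 545 and 468 FPKM and all were highest in pool 1. The 3 cuticle and tracheal markers summed to 1608, 646 and 499 FPKM, and 2 of them were highest in pool 1. The 7 fat body markers summed to 1169, 1358 and 1205 FPKM, and 2 of them were highest in pool 1. The 3 neuron markers summed to 45.3, 44.5 and 38.1 FPKM. The haemocyte marker LOC411597 measured 67.3, 74.4 and 82.2 FPKM. In these bulk samples fewer cells of a type and less RNA per cell cannot be told apart.

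Transporter transcripts were mostly of low to moderate abundance. Of the 117 genes, 88 (75.2%) reached FPKM 1 in all 3 pools, against 80.0% of all protein-coding genes. A further 14 stayed under FPKM 1 in every pool, and among all protein-coding genes that share was 13.8%. The median of the mean FPKM was 7.79 for the transporters and 14.99 for all protein-coding genes. On the log2(FPKM + 1) scale the median transporter level was 3.23, 2.95 and 3.11 in pools 1, 2 and 3, below the median of all protein-coding genes by 0.75, 0.94 and 0.92 in the same pools, a mean difference of -0.87 ± 0.10 (SD, n = 3). Only 9 transporters had a mean FPKM of 50 or more, against 16.5% of protein-coding genes. The 10 most abundant transporters supplied 38.5%, 47.5% and 42.5% of the summed transporter FPKM in pools 1, 2 and 3.

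Levels differed by role. The 8 mitochondrial carriers had a median mean FPKM of 22.4 and the 3 SLC41 metal ion transporters one of 31.6. The 7 carriers of inorganic ions and related solutes had a median of 12.8 and the 11 carriers of nucleotides and nucleotide sugars one of 9.70. The 16 monocarboxylate transporters, 30 amino acid transporters, 26 sugar transporters and 13 organic ion transporters had medians of 5.56, 5.14, 3.85 and 3.38. All 8 mitochondrial carriers passed FPKM 1 in every pool, as did 16 of the 26 sugar transporters and 22 of the 30 amino acid transporters. These are medians over different numbers of genes, and the ranges of the roles overlap.

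**Figure D1:**
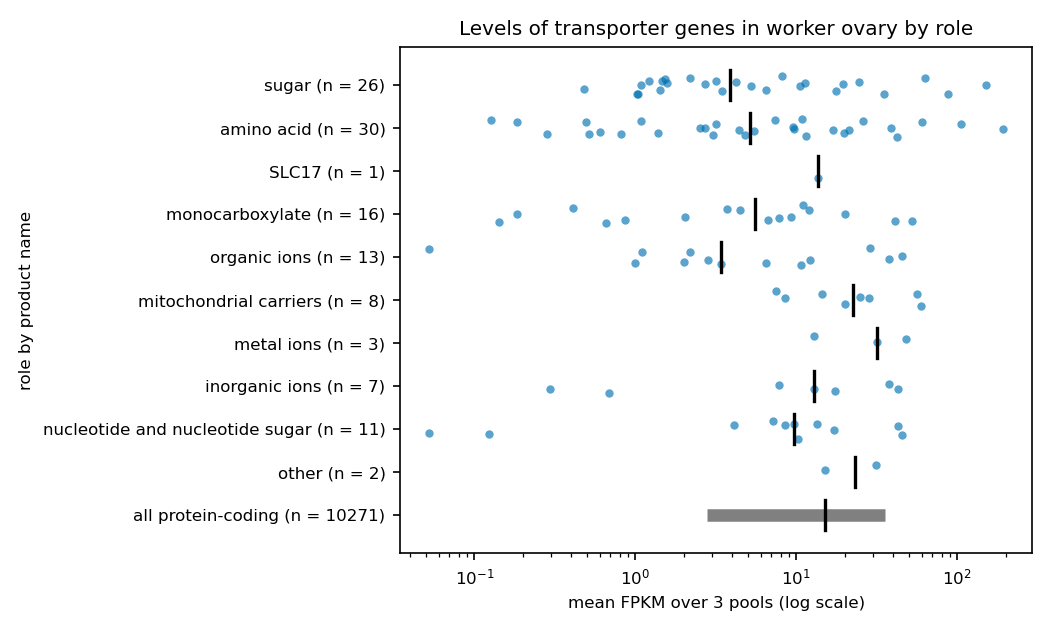
Mean FPKM over 3 pools for each of the 117 transporters (points, log scale), grouped by role, with the median of each role as a black line. The last row gives all protein-coding genes as a median line with a grey bar for the middle quartiles. The sugar and amino acid transporters spread from under 1 to over 100 FPKM, while the 8 mitochondrial carriers lie at 7.52 or above.

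The most abundant sugar transporter was LOC726814, a relative of the mammalian glucose transporters of family SLC2, at LG11, positions 14621698 to 14628079 on the minus strand. It measured 144, 151 and 159 FPKM in pools 1, 2 and 3, a mean of 151 ± 7.55 (SD, n = 3). The pools differed by a factor of 1.10. Next came the Tret1-like genes LOC552592 at 110, 82.4 and 71.9 FPKM and LOC726839 at 56.7, 56.5 and 74.7 FPKM. Their highest pools differed, pool 1 for LOC552592 and pool 3 for LOC726839. LOC726839 stands 13.1 kb from another Tret1-like gene, LOC408478, which measured 30.7, 34.3 and 40.4 FPKM and was also highest in pool 3.

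Of the 26 sugar transporters, 23 carry a trehalose transporter name. At a mean FPKM of 1 or more, 20 of 98 transporters (20.4%) differed by 2-fold or more between the highest and the lowest pool, against 14.1% of protein-coding genes. Trehalose transporters made up 13 of these 20, from 22 trehalose transporters at that level, and the members outside the sugar role gave 7 of 73. The protein-coding shares given here were not matched for level. At a mean FPKM of 5 or more the share of protein-coding genes differing 2-fold was lower, at 10.2%. Of the 22 trehalose transporters, 9 reached that mean, against 7074 of 8601 protein-coding genes. Of these 9, 2 differed 2-fold. In 7 of the 13 trehalose transporters the mean of the other pools was under FPKM 1, so they passed the filter only through their highest pool. The filter favours a difference in such genes, and 159 of 205 such protein-coding genes differed 2-fold. Passing in this way was counted after the values were seen, and among all protein-coding genes it held for 159 of the 1212 that differed 2-fold (13.1%). Of the 15 trehalose transporters that passed otherwise, 6 differed 2-fold, against 12.5% of protein-coding genes that passed otherwise. Of the 13, 7 were highest in pool 1, 6 in pool 3 and 0 in pool 2. For all protein-coding genes at a mean FPKM of 1 or more, 7.88%, 2.43% and 3.78% differed 2-fold with their highest value in pools 1, 2 and 3. With only pools 2 and 3 compared, 7 of 20 trehalose transporters and 9 of 96 transporters in all passed, against 4.81% of protein-coding genes. With pools 1 and 3 compared, 10 of 22 trehalose transporters and 14 of 99 transporters passed, against 6.86%. With pools 1 and 2 compared, 7 of 17 trehalose transporters and 14 of 95 transporters passed, against 11.6%. These counts for pairs of pools were not split by how a gene passed the filter, so they are no separate check. With pools 2 and 3, LOC102655622 (0.836 and 9.09 FPKM) and LOC102654899 (0.446 and 4.02 FPKM) were among those passing only through pool 3.

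Pool 1 was far above the other pools in a pair of moderately abundant Tret1-like genes. LOC724874, at LG1, positions 1958373 to 1966233 on the minus strand, measured 57.0 FPKM in pool 1, against 7.53 and 8.69 FPKM in pools 2 and 3. This highest-to-lowest ratio of 7.57 was the largest among the transporters with a mean FPKM of 5 or more, and it rests on at least 3990, 457 and 507 fragments. It overlaps the globin gene Glob1 on the opposite strand by 1285 bp, and Glob1 ran the other way at 242, 385 and 306 FPKM. LOC413575, at LG1, positions 22169235 to 22191685, measured 41.03, 8.42 and 9.04 FPKM, a ratio of 4.87. Its neighbour LOC413576, 13.3 kb away, measured 1.3705, 0.0390 and 0.0305 FPKM from at least 162, 4 and 3 fragments. Both genes of this pair were far higher in pool 1 than in the other pools. The adjacent pair LOC726485 and LOC726505 was also highest in pool 1, at 2.32, 0.557 and 0.251 FPKM and at 2.16, 0.807 and 1.73 FPKM.

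Pool 3 was the highest in a set of scarce Tret1-like genes. Of these, LOC102654899 and LOC102655631 are neighbours, and the others were chosen after their values were seen. LOC102655622 on LG4 measured 0.414, 0.836 and 9.09 FPKM, from at least 24, 42 and 439 fragments. LOC102654899 on LG12 measured 0.107, 0.446 and 4.02 FPKM, from at least 10, 36 and 312 fragments. Its neighbour LOC102655631, 4.81 kb away, measured 0.638, 0.667 and 2.32 FPKM. In all of these, pool 3 was above both other pools, which lay close together in absolute level. LOC412797 with 0.620, 0.650 and 2.98 FPKM and LOC412007 with 0.426, 0.626 and 2.0005 FPKM showed the same order. LOC102655153 measured 1.69, 1.10 and 3.74 FPKM, and it lies within LOC726410 on the same strand, a gene at 9.38, 10.1 and 10.8 FPKM, so reads of the pair may not be separable. Tret1-like genes are numerous and similar in name, and the sources used here do not say how reads shared between near-identical copies were assigned.

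**Figure D2:**
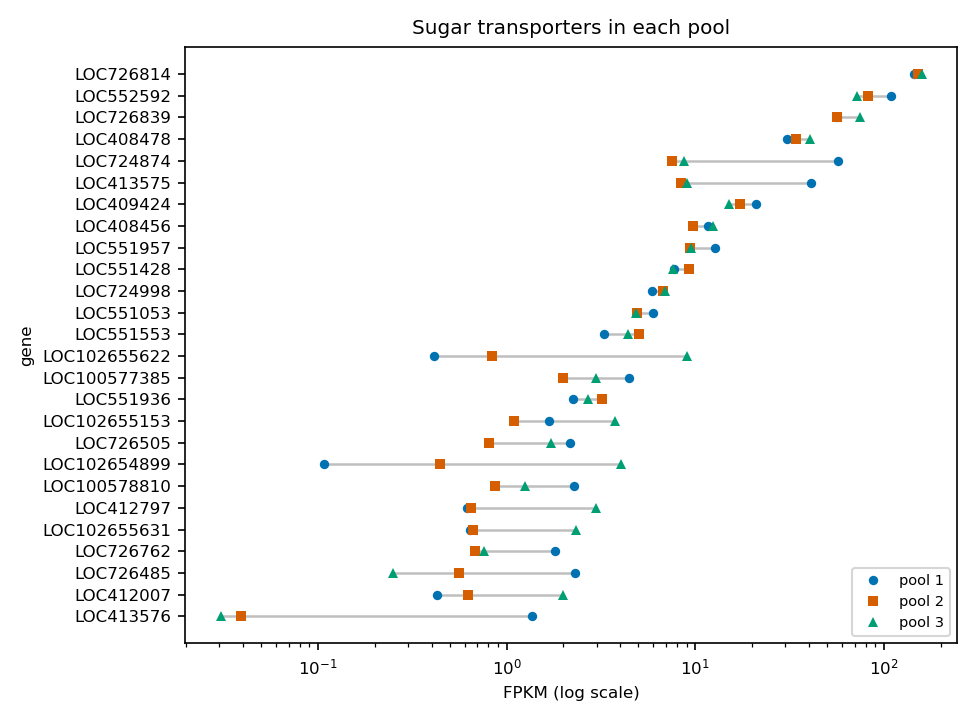
FPKM (log scale) of the 26 sugar transporters in pools 1, 2 and 3, ordered by mean, with a line joining the lowest and the highest pool. LOC726814 shows 3 nearly coincident points at 144 to 159 FPKM, while LOC724874 and LOC413575 have pool 1 far to the right and LOC102655622 and LOC102654899 have pool 3 far to the right.

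The leading amino acid transporter, and the most abundant transporter of all, was LOC412382, named excitatory amino acid transporter 3, a family that takes up glutamate and aspartate with sodium. It measured 122, 256 and 201 FPKM in pools 1, 2 and 3, a mean of 193 ± 67.4 (SD, n = 3). Pool 1 was the lowest, and the ratio of pool 2 to pool 1 was 2.10. It overlaps LOC552594 on the opposite strand by 1381 bp, a gene at 28.8, 34.1 and 28.9 FPKM. The other members of that family were scarcer. LOC409919 measured 14.1, 25.7 and 23.7 FPKM. LOC408769 measured 1.502, 1.07 and 1.59 FPKM. Eaat-2 measured 0.155, 0.601 and 0.732 FPKM. LOC551759 was low as well, at 0.842, 0.277 and 0.697 FPKM. LOC409919 and Eaat-2 shared the order of LOC412382 in that pool 1 was lowest.

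Proton-coupled amino acid transporters, which in mammals move small amino acids out of lysosomes or into cells with protons, filled the next places. LOC413000 measured 97.6, 122 and 96.2 FPKM and LOC552193 measured 66.0, 65.1 and 49.1 FPKM. The pools of these genes differed by factors of 1.27 and 1.34. LOC552193 stands 2.26 kb from LOC409640, another proton-coupled member, at 12.98, 10.7 and 10.6 FPKM.

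Sodium-dependent nutrient amino acid transporters, known in flies and mosquitoes for uptake of essential amino acids in the gut, were scarce. A run of 4 of them lies on LG1 between positions 7917641 and 7942327. LOC725346 measured 9.59, 2.77 and 4.03 FPKM, and it was the only member of the run with a mean FPKM above 1. LOC725456 measured 1.54, 0.463 and 0.451 FPKM. LOC725420 measured 0.986, 0.267 and 0.292 FPKM. LOC102654427 measured 0.204, 0.125 and 0.521 FPKM. The first 3 named were highest in pool 1, as were the gut markers, and the part of the gut markers in that order was not tested. LOC725420 and LOC102654427 overlap by 350 bp on opposite strands.

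**Figure D3:**
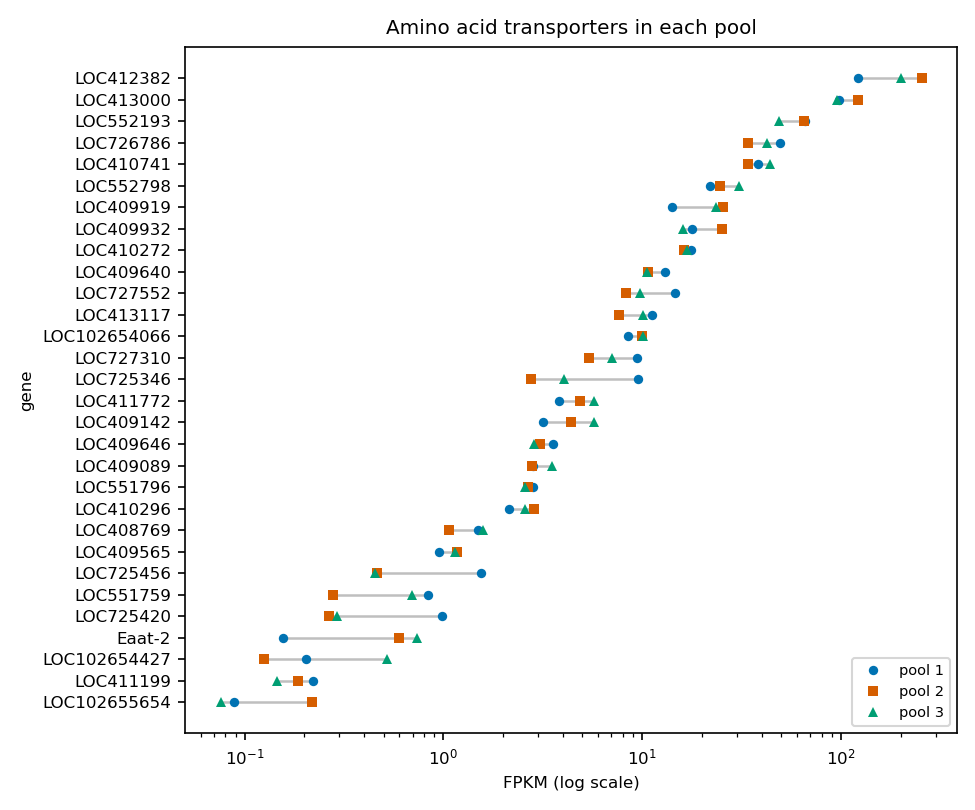
FPKM (log scale) of the 30 amino acid transporters in pools 1, 2 and 3, ordered by mean, with a line joining the lowest and the highest pool. LOC412382 leads with 122, 256 and 201 FPKM, and LOC725346 is the member at a mean of 5 or more whose pool 1 point lies far above its other points.

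The 16 monocarboxylate transporters are named after carriers of lactate, pyruvate and related acids. The name does not give the substrate of each gene. LOC107965801 is among them by its NT description alone, and its NR description names a metabotropic glutamate receptor. Of the 16, LOC411412 led at 47.2, 56.2 and 54.6 FPKM. LOC725015 followed at 44.7, 38.6 and 39.6 FPKM and LOC551263 at 17.99, 16.9 and 25.4 FPKM. None of these 3 differed 2-fold between pools. LOC410626, a sodium-coupled monocarboxylate transporter at LG15, positions 4734421 to 4746473, did, with 20.3, 5.70 and 7.14 FPKM and a ratio of 3.55. LOC410683, of the same sodium-coupled kind, was highest in pool 3, at 1.46, 1.04 and 3.63 FPKM. The enzyme L-lactate dehydrogenase (LOC411188), which interconverts lactate and pyruvate, measured 48.1, 12.7 and 13.3 FPKM, with pool 1 the highest as for LOC410626.

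Of the 13 organic ion transporters, LOC412056, an organic cation transporter, was the most abundant at 44.2, 54.4 and 37.9 FPKM. LOC552239, related to SLC46A3 of lysosomes, measured 38.4, 37.8 and 36.3 FPKM and LOC408302, of family SLC22, measured 32.4, 24.9 and 29.02 FPKM. The organic cation transporter LOC726688 was lowest in pool 1, at 3.02, 9.18 and 7.32 FPKM, a ratio of 3.04. The lowest transporter of all was LOC107965771, listed at 0, 0.157 and 0 FPKM, whose NT description names another gene.

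The 3 metal ion transporters all belong to SLC41, a family of magnesium transporters related to the bacterial protein MgtE, and all 3 were highest in pool 2. LOC410862 measured 33.5, 70.8 and 39.1 FPKM, a ratio of 2.12. LOC410803 measured 6.71, 21.9 and 10.2 FPKM, a ratio of 3.27, and LOC551653, which lies 280 bp before it on LG2 on the same strand, measured 28.7, 34.98 and 31.03 FPKM. The pools of LOC551653 differed by a factor of 1.22.

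At a mean FPKM of 1 or more, 0 of 8 mitochondrial, 0 of 9 nucleotide and 0 of 5 inorganic ion carriers differed 2-fold between pools. The share among protein-coding genes was 14.1%, and these are small numbers of genes. The mitochondrial carrier LOC410612, related to the branched-chain amino acid carrier SLC25A44 of mammals, measured 62.2, 52.9 and 62.4 FPKM. LOC413551, related to the coenzyme A carrier SLC25A42, measured 55.8, 59.3 and 53.0 FPKM. LOC411142, related to SLC25A46 of the mitochondrial outer membrane, measured 31.4, 25.1 and 28.2 FPKM. In all 3 of these carriers the pools differed by less than 1.5-fold.

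Family SLC35 carries nucleotides and nucleotide sugars across membranes of the secretory pathway. Its most abundant member, Slc35b1, measured 52.9, 38.9 and 44.8 FPKM. LOC412320 measured 46.98, 41.8 and 40.2 FPKM. LOC411269 measured 16.6, 16.3 and 18.5 FPKM. Pool 1 was the highest for Slc35b1 and LOC412320 and pool 3 for LOC411269. The lowest carriers of this family were LOC724388 at 0, 0.0436 and 0.113 FPKM and LOC408681 at 0.0583, 0.101 and 0.210 FPKM.

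The inorganic ion carriers were led by relatives of the cation-chloride cotransporters, family SLC12. LOC411661 measured 43.1, 45.9 and 39.3 FPKM. LOC413689 measured 36.8, 35.6 and 40.5 FPKM. LOC411113 measured 15.7, 18.5 and 18.2 FPKM. Each was at a similar level in the 3 pools. The riboflavin transporter LOC411110 measured 40.7, 26.1 and 27.4 FPKM. LOC408843, 673 bp from it, measured 15.8, 14.5 and 14.9 FPKM and is described by NR as an F-box and WD repeat protein, so its place in the list rests on the NT description. LOC412620, related to the vesicular nucleotide transporter SLC17A9, measured 13.7, 11.5 and 15.5 FPKM.

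At the higher level of a mean FPKM of 5 or more, 8 of 68 transporters (11.8%) differed 2-fold or more between pools, against 10.2% of protein-coding genes, so the share is near the background. At a ratio of 3 or more, 6 of 68 (8.82%) differed, against 3.62% of protein-coding genes. The 8 were LOC724874, LOC413575, LOC410626 and LOC725346, all highest in pool 1, and LOC410803, LOC726688, LOC410862 and LOC412382, all highest in pool 2. The backgrounds for a highest value in pools 1 and 2 were 6.49% and 1.96%, and 1.77% for pool 3, where no transporter fell. The 2-fold count depended on pool 1, and so did that of all protein-coding genes. Without pool 1, 1 of 68 transporters passed, against 3.04% of protein-coding genes. Without pool 2, 5 of 68 passed, against 4.04%, and without pool 3, 8 of 68 passed, against 8.89%. The median coefficient of variation between pools was 15.5% for the transporters at this level and 13.8% for protein-coding genes. At any ratio, 51.5% of the transporters at this level were highest in pool 1, against 38.9% of protein-coding genes. The shares of protein-coding genes highest in pools 2 and 3 were 30.9% and 30.2%. The gut, muscle and cuticle marker sums were also highest in pool 1, and their part in the transporter differences was not tested.

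Some members are neighbours. Taking members within 20 kb of each other, 28 of the 117 transporters formed 13 runs, of which 11 held a single role. How often other protein-coding genes of like product lie together was not counted. Members lay on 16 linkage groups, and 10 were on unplaced scaffolds. By the deposited Pfam families, 37 transporters held the Sugar_tr domain, out of 47 protein-coding genes with it, and these included all 26 sugar transporters and 11 of the 13 organic ion transporters. In all, 24 transporters overlap another protein-coding gene on either strand, and the sources used here do not give the strand rule of the counting.

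Other genes of sugar and ion handling, chosen by product name, were measured beside the transporters. Of 66 such genes, 54 reached FPKM 1 in all pools, against 80.0% of protein-coding genes. Of the 49 at a mean of 5 or more, 5 differed 2-fold, against 10.2% of protein-coding genes. Both shares are near the background. Both trehalases, which split trehalose into glucose, were lowest in pool 1, LOC410484 at 14.1, 25.6 and 27.7 FPKM and LOC410795 at 18.5, 31.1 and 32.96 FPKM. The trehalose-phosphate synthase genes LOC107965837 and LOC408867 measured 73.7 ± 10.3 and 72.4 ± 10.1 FPKM (SD, n = 3 each). The hexokinase LOC551005 measured 59.8, 104 and 84.1 FPKM. Of the 14 genes named for the V-type proton ATPase, 13 were highest in pool 1, and 38.9% of all protein-coding genes at a mean FPKM of 5 or more were. The exception was LOC412810 which differed 2-fold and was lowest in pool 1, at 21.1, 44.8 and 38.4 FPKM. Some genes found by name are other proteins, such as LOC408976, a glycogen synthase kinase.

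The circRNA libraries give a separate readout of some of the same genes. circRNAs are closed loops formed when a splice donor joins an upstream acceptor, and their level is the authors' normalised signal SRPBM, which scales back-spliced reads to the reads mapped. Listed junctions came from 43 of the 117 transporters (36.8%), against 20.6% of protein-coding genes, and 19 transporters (16.2%) had signal in all 3 libraries, against 12.2%. The host transporters span a median of 15211 bp, against 3758 bp for the other transporters, and protein-coding hosts span 23534 bp, against 3048.5 bp for other protein-coding genes. Hosts numbered 9 of the 16 monocarboxylate, 7 of the 13 organic ion, 13 of the 30 amino acid and 8 of the 26 sugar transporters, but 1 of the 8 mitochondrial carriers and 1 of the 11 nucleotide carriers. In all, 112 of 11794 junctions were assigned to transporters, with 27 seen in all 3 libraries and 61 in 1 library. They held 0.558%, 0.509% and 0.499% of the SRPBM of libraries 1, 2 and 3. Of the 112 junctions, 6 lay on the strand opposite to the gene, in 5 genes. For LOC725015 and LOC409932 the only listed junction was of this kind.

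The circRNA signal was concentrated in a few genes. LOC410626, the sodium-coupled monocarboxylate transporter, summed to 19324, 14582 and 10706 SRPBM over 6 junctions, and 4 of these share the boundary at position 4741303 of LG15. LOC552193, the proton-coupled amino acid transporter, summed to 13304, 14148 and 16973 SRPBM, of which the junction from 3692606 to 3694618 gave 12106, 13038 and 15061. LOC100578314, related to the aromatic amino acid transporter MCT10 of mammals, summed to 11653, 14136 and 11897 SRPBM over 15 junctions, although its RNA-seq level was only 3.02, 3.78 and 4.38 FPKM. LOC411772, a large neutral amino acid transporter subunit, gave 8481, 11410 and 6236 SRPBM at an RNA-seq level of 3.83, 4.86 and 5.73 FPKM. LOC409122, a mitochondrial carrier related to SLC25A36, gave 3561, 2774 and 2977 SRPBM and LOC102653922, an organic cation transporter, gave 1176, 2195 and 1755 SRPBM. LOC412382 and LOC724874, 2 of the genes with a 2-fold difference between RNA-seq pools, had no listed junction.

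For 3 of the transporters that differed 2-fold between RNA-seq pools, the circRNA library with the highest signal carried the same pool number. LOC413575 gave 6172, 1146 and 3718 SRPBM, with pool 1 the highest in both assays. LOC410803 gave 1608, 4897 and 2131 SRPBM, with pool 2 the highest in both assays, and LOC410626 was highest in pool 1 in both. Of 5 transporters 2-fold different at a mean FPKM of 1 or more with signal in all 3 circRNA libraries, these 3 had the same highest pool, against 49.6% of 113 such protein-coding genes, which is near the background. The other two, LOC726762 and LOC100578810, were highest in pool 1 in RNA-seq and in pool 2 in the circRNA libraries. LOC726762 gave 1047, 2931 and 961 SRPBM. LOC100578810 gave 227, 350 and 219 SRPBM. Other hosts that differed 2-fold lacked signal in a library and were not counted here. LOC410862 gave 227, 0 and 533 SRPBM and LOC726688 gave 0, 555 and 888 SRPBM, and both were highest in pool 2 in RNA-seq. LOC102655631, highest in pool 3 in RNA-seq, gave 647, 880 and 0 SRPBM. In none of these was the highest pool the same in both assays. Over all 19 transporters with signal in every circRNA library the highest pool was the same in 6, against 36.5% of 1256 protein-coding genes, which is near the background. Whether libraries with the same pool number share RNA is not stated, and no depth is known for the circRNA libraries.

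**Figure D4:**
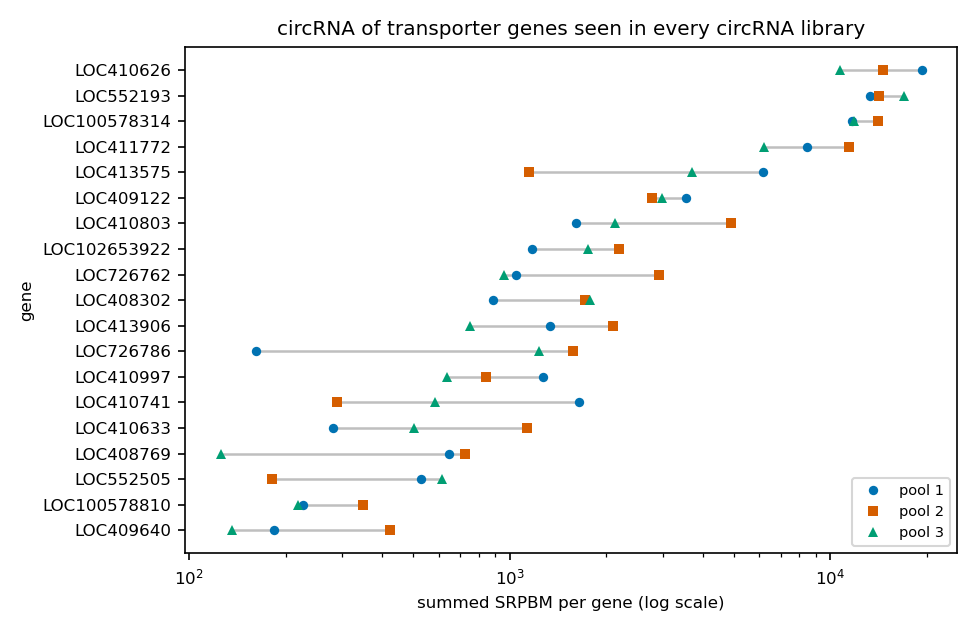
Summed SRPBM per gene (log scale) in circRNA libraries 1, 2 and 3 for the 19 transporters with signal in every library, ordered by mean. LOC410626, LOC552193 and LOC100578314 have the highest means, and LOC413575 and LOC410803 have their highest points in pool 1 and pool 2.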

How the data were processed

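The authors deposited 1 table of FPKM per gene with product descriptions and coordinates, and 1 table of a normalised signal, SRPBM, per circRNA junction. RNA was rRNA-depleted and prepared with a directional kit, and circRNA libraries were treated with RNase R, per the labels' protocols. The submitters' processing notes name, with no roles, HTSeq 0.6.1, TopHat2 2.0.9, Bowtie2 2.0.6 and Bowtie. The genome build and the strand rule of counting are not given in the sources used here. The miRNA tables were not used.

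Whole fragments were recovered from FPKM for 13203 of 13204 genes, within 1e-06, which gave totals of 31930244, 27684048 and 26602582 fragments in pools 1, 2 and 3. They are the smallest whole numbers that the values allow and are given as at least so many. Of the 117 transporters, 87 had at least 100 fragments in every pool, and for 9 this lower bound was under 10 in some pool. They speak to counting error only, and no depth is known for the circRNA libraries.

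Roles came from product names, and 111 transporters matched the RefSeq table by symbol. Medians used log2(FPKM + 1). A difference between pools was a highest value at least 2 times the lowest, among genes with a mean FPKM of 5 or more, and was not tested. The members, roles, marker lists and name lists were chosen with earlier results of these data known. Genes were named by rule: the 3 highest of each role, those differing 2-fold at a mean FPKM of 5 or more, the 3 lowest, the 8 highest circRNA hosts and runs of members within 20 kb. Other named genes were chosen after their values were seen. Alternatives were other filters, ratios, pseudocounts, a rescaling by median ratios, members by NR name alone and leaving out each pool. Python 3.11.15, numpy 2.4.6, pandas 2.3.3 and matplotlib 3.10.9 were used, and the counting steps were tested on simulated data.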

Additional observations from a re-analysis of the deposited data

How the results depend on the processing

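No paired analysis was possible because the results come from no test and there is 1 group. The count of transporters differing 2-fold between pools depended on the choices made: it was 8 at a mean FPKM of 5 or more, 20 at 1 or more, 17 with no filter and a pseudocount of 1, 25 at a ratio of 1.5 and 6 at a ratio of 3, and it ranged from 1 to 8 when each pool was left out. As shares of the transporters at each filter, those settings gave 11.8%, 20.4%, 14.5%, 36.8% and 8.82%, and 1.47% without pool 1. Among protein-coding genes they gave 10.2%, 14.1%, 9.07%, 27.8% and 3.62%, and 3.04% without pool 1. The median transporter level was 2.93 with a pseudocount of 0.1, against 3.10 with 1, and ranged from 3.03 to 3.17 when each pool was left out. The number of circRNA host transporters was 43, ranged from 38 to 39 when each library was left out, and fell to 14 when a junction had to be above 0 in all 3 libraries. It was 41 when the junction ends had to lie inside the gene on its strand. Only the main count has a protein-coding share beside it, 36.8% against 20.6%. Without such shares for the alternatives, whether transporters exceed protein-coding genes under them cannot be read from these counts. The median difference from protein-coding genes stayed between -0.97 and -0.83 under the alternatives run. The number of transporters reaching the expression threshold in all pools kept was 85 to 97, or 65 at FPKM 5. The 85 were of 111 members by NR name alone, and the other counts were of 117. Shares of protein-coding genes are given for the main setting only, 80.0% against 75.2% of transporters. Leaving out pool 1 lowered the mean FPKM of LOC724874 to 8.11, against 24.4 with all pools, and that of LOC413575 to 8.73, against 19.5, that of LOC410626 to 6.42, against 11.03, and that of LOC725346 to 3.40, against 5.46. Leaving out pool 2 lowered that of LOC410803 to 8.47, against 12.96. Each of these genes was highest in the pool left out, so a lower mean was fixed in advance. Depth limits the scarcest transporters, and for 9 of them the recovered lower bound was under 10 fragments in some pool.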
